A study of Mus musculus with 12 samples.

Results

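Integrins, laminins and nidogens were followed across ventricles of 12 C57Bl/6J wild-type mice in 3 groups of 4. Members were the genes of the count tables whose symbol begins with Itga or Itgb (without Itgb1bp1 and Itgbl1), the laminin chain genes, Nid1 and Nid2. The rule used names and no measured value, but the members were chosen with earlier results of these data known. It found 39 of 14957 genes, namely 17 integrin alpha and 8 integrin beta subunits, 4 laminin alpha, 3 beta and 3 gamma chains, 2 nidogens and 2 further genes that match the rule by name and encode no integrin subunit (Itgb1bp2 and Itgb3bp). All 39 had counts above 0 in every library, and 37 passed the filter on low counts and were tested, with Itga2 and Itgae left untested. Lama1 and Itgad were not analysed here.

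The study asked what BacNav, a sodium channel of bacterial origin delivered as gene therapy, does in the pressure-loaded heart. Sham-NT mice were sham animals that received PBS and no vector. TAC-mScarlet mice had transverse aortic constriction, a surgical narrowing of the aorta that loads the left ventricle, and received the viral vector AAV9-MHCK7-mScarlet, in which the muscle promoter MHCK7 drives a red fluorescent protein. TAC-BacNav mice had the constriction and received AAV9-MHCK7-BacNav-mScarlet. Age, sex and the time between operation and harvest were left unstated in the labels. The sham group received neither the constriction nor a vector, so the effects of operation and vector cannot be told apart in comparisons with it.

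Integrins are receptors made of 1 alpha and 1 beta subunit that span the cell membrane and tie the cytoskeleton to the matrix outside. Laminins are trimers of an alpha, a beta and a gamma chain that polymerise into the sheet of the basement membrane around each cardiomyocyte and capillary, and nidogens link that sheet to the collagen IV network. In cardiomyocytes the beta 1 integrin with the alpha 7 subunit, together with dystroglycan, holds the contractile apparatus to laminin and takes part in sensing load, while fibroblasts, vessel cells and leukocytes carry other subunits.

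Libraries held 5.36 to 7.84 M (mega-counts) in Sham-NT, 8.28 to 9.81 M in TAC-mScarlet and 7.36 to 11.5 M in TAC-BacNav, so each Sham-NT library was shallower than each TAC-mScarlet library. Levels are counts scaled to a common library total (CPM, after TMM scaling), and levels between genes are compared per kilobase of exon (RPKM). The 10 ventricular cardiomyocyte markers were all measured and summed to 89400 to 101000 CPM in Sham-NT, 54100 to 73800 CPM in TAC-mScarlet and 67300 to 89700 CPM in TAC-BacNav. Libraries also fell on either side of a gap in the immediate early gene Fos, at 54.9 to 301 CPM in Sham-NT 1 and 2, TAC-mScarlet 1, 2 and 3 and TAC-BacNav 1 and 2, and at 1.6 to 7.89 CPM in the other 5. In bulk tissue, fewer cells of a type and less RNA per cell cannot be told apart.

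Per length, the ventricle was dominated by a few members of each class. Itgb1, the partner of most matrix-binding alpha subunits, averaged 118 RPKM over the 12 libraries, Itgb5 32.6 RPKM, Itgb2 3.62 RPKM and Itgb6 2.9 RPKM, and Itgb8 was the lowest beta subunit at 0.258 RPKM. Among the alpha subunits, Itga5, a fibronectin receptor, and Itga7, the laminin receptor of striated muscle, both averaged 14.9 RPKM. They were followed by Itga6, another laminin receptor, at 10.3 RPKM and Itga9 at 9.21 RPKM. The laminin chains were led by Lama4 (9.77 RPKM) and Lama5 (8.58 RPKM), Lamb2 (38.9 RPKM) and Lamc1 (20.6 RPKM), and Nid1 (27.3 RPKM) exceeded Nid2 (3.61 RPKM). Itgb1bp2 was above every integrin subunit at 147 RPKM. In all, 15 of the 39 members averaged under 1 RPKM, among them the leukocyte subunits Itgal, Itgax, Itgae and Itgb7, the platelet subunit Itga2b and the epithelial subunit Itgb4.

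**Figure D1:**
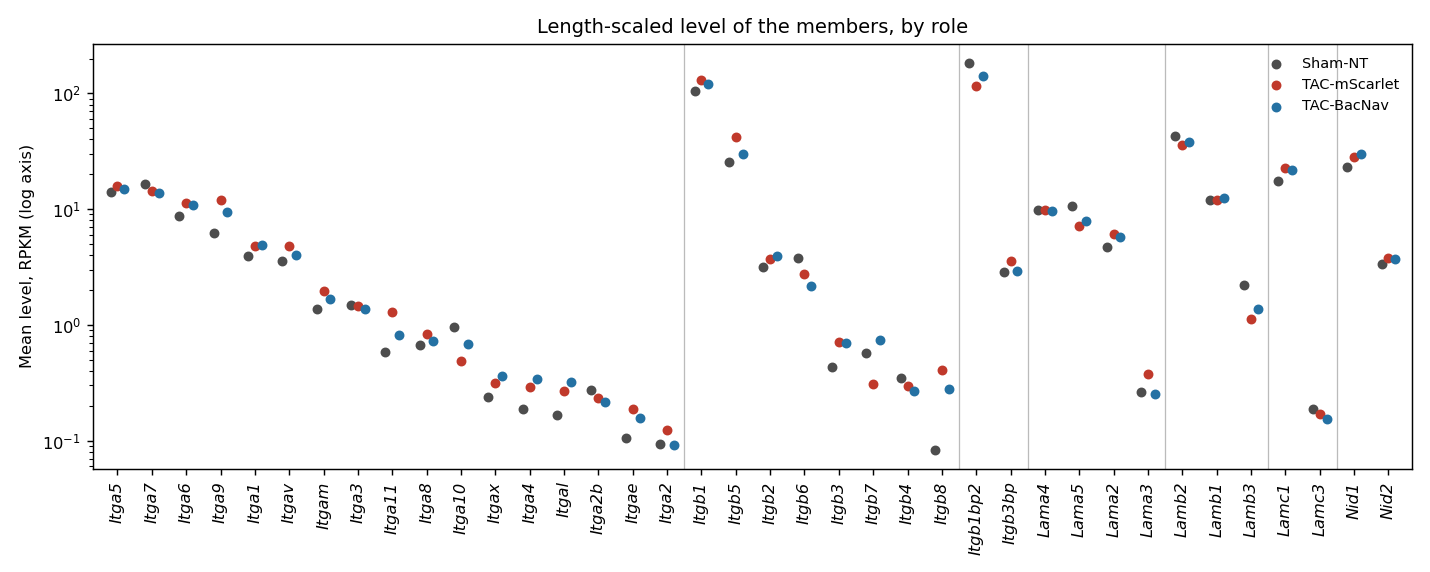
Mean level of 38 of the 39 members in RPKM (log axis) in each of the 3 groups, ordered within each class by the mean over all libraries. Points are means of 4 mice. Itgb1, Itgb1bp2, Itgb5, Lamb2, Nid1 and Lamc1 stand highest, and the largest gap between groups is at Itgb8.

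In TAC-mScarlet against Sham-NT, 4 members rose, 1 fell and 32 were not called, where a call is an adjusted p under 0.05 (quasi-likelihood fit of edgeR, Benjamini-Hochberg over 13910 genes). Over all genes tested 5.17% were called, 2.65% higher and 2.52% lower. The risers were Itgb8, Itgb5, Itga11 and Itga9, all integrin subunits, and the gene that fell was Itgb1bp2. None of the 10 laminin chains or the 2 nidogens was called. The members' median log2 fold change was 0.28, with a range of -0.98 to 2.29 and 25 of 37 above 0, beside a median of 0.00444 over all genes. Before adjustment 15 of 37 members had p under 0.05, against 22.2% of all genes. Groups did not overlap for 6 members in the higher direction (Itgb8, Itgb5, Itga11, Itga9, Itga4 and Itgav), where 6.33% of all genes did so, and for 4 in the lower direction (Itgb1bp2, Lama5, Lamb2 and Itga7), where 6.78% did so.

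**Figure D2:**
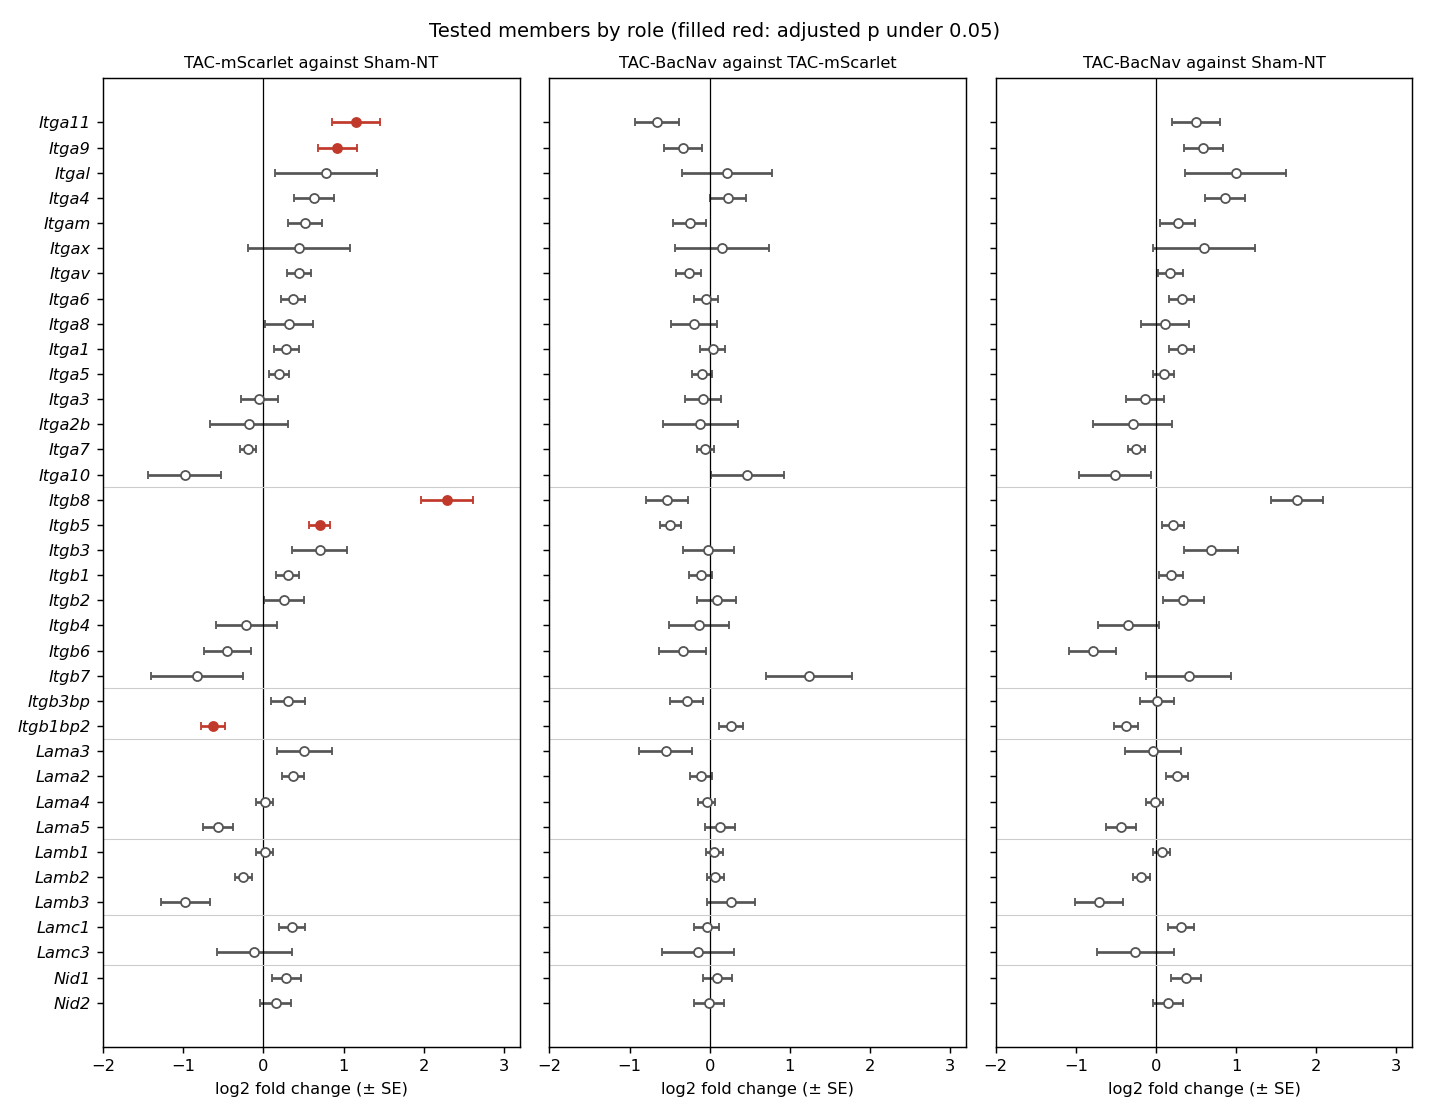
Log2 fold change of 36 of the 37 tested members with its standard error (SE), by class, in the 3 comparisons. Filled red points passed an adjusted p of 0.05. The 5 red points are all in TAC-mScarlet against Sham-NT, with Itgb8 at 2.29 and Itgb1bp2 at -0.63, and no member passed in the other 2 comparisons.

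Itgb8 (ENSMUSG00000025321.14, chromosome 12, 119158022 to 119238802, minus strand, GRCm38) encodes the beta 8 subunit, which pairs with alpha v and releases active TGF-beta from its latent complex. Its level was 0.991, 0.976, 0.776 and 0.961 CPM in Sham-NT, 3.46, 4.19, 5.85 and 4.64 CPM in TAC-mScarlet, and 3.37, 2.78, 2.27 and 4.03 CPM in TAC-BacNav. All 8 TAC libraries were above all 4 Sham-NT libraries, and the TAC groups overlapped. The gene rose 4.89-fold in TAC-mScarlet, or 2.29 ± 0.32 on the log2 scale (fold change ± SE, adjusted p = 0.004056). These levels rest on few reads, 5 or 6 counts in each Sham-NT library and 29 to 61 in each TAC-mScarlet library. Leaving out any 1 of the 12 libraries kept the call, with adjusted p up to 0.02261.

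Itgb5 (ENSMUSG00000022817.15, chromosome 16, 33829665 to 33949338, plus strand) encodes the beta 5 subunit, the alpha v partner of a vitronectin receptor. Its level was 91.6, 88.4, 86.7 and 100 CPM in Sham-NT, 134, 119, 196 and 147 CPM in TAC-mScarlet, and 105, 103, 112 and 105 CPM in TAC-BacNav. The 3 groups formed 3 separate bands, with Sham-NT lowest, TAC-BacNav narrow and just above it, and TAC-mScarlet highest and widest. In TAC-mScarlet the gene rose 1.63-fold (0.70 ± 0.13, adjusted p = 0.02026). The call was lost without Sham-NT 2 (adjusted p = 0.07291) or Sham-NT 4 (adjusted p = 0.05854).

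Itga11 (ENSMUSG00000032243.8, chromosome 9, 62677826 to 62783982, plus strand) encodes the alpha 11 subunit, a receptor for fibrillar collagen on fibroblasts. Its level was 2.78, 4.1, 2.33 and 2.72 CPM in Sham-NT, 5.38, 5.1, 9.87 and 5.91 CPM in TAC-mScarlet, and 2.91, 4.95, 3.87 and 4.93 CPM in TAC-BacNav. Every TAC-mScarlet library stood above every library of the other groups, and TAC-BacNav overlapped Sham-NT. The gene rose 2.23-fold (1.16 ± 0.29, adjusted p = 0.03648). TAC-mScarlet 3 was the highest library, and without it the log2 fold change was 0.88 (adjusted p = 0.1303). The call was also lost without any 1 of the 4 Sham-NT libraries or TAC-mScarlet 4, and by limma-voom (adjusted p = 0.05732).

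Itga9 (ENSMUSG00000039115.13, chromosome 9, 118606690 to 118901003, plus strand) encodes the alpha 9 subunit, a receptor for tenascin C, osteopontin and VCAM1. Its level was 35.5, 42.9, 64.1 and 50.3 CPM in Sham-NT, 74.7, 72.8, 97.3 and 121 CPM in TAC-mScarlet, and 51.0, 53.0, 88.1 and 98.6 CPM in TAC-BacNav. TAC-mScarlet lay above Sham-NT with no overlap, and TAC-BacNav spanned the space between them. The gene rose 1.89-fold (0.92 ± 0.24, adjusted p = 0.0442). Within every group the low-Fos libraries held more Itga9, from 50.3 to 64.1 against 35.5 to 42.9 CPM in Sham-NT, 121 against 72.8 to 97.3 CPM in TAC-mScarlet and 88.1 to 98.6 against 51.0 to 53.0 CPM in TAC-BacNav. Of the 37 tested members 5 showed this order in all 3 groups (Itga9, Itgb1, Itgb3, Lamc1 and Nid1), where 3.77% of all genes did, and 0 showed the opposite order, where 3.95% did. With the Fos side as a covariate the rise was called. It was lost without Sham-NT 1, 2 or 4, TAC-mScarlet 3 or 4, or TAC-BacNav 3, with adjusted p up to 0.1298, and by limma-voom (adjusted p = 0.05732).

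Itgb1bp2 (ENSMUSG00000031312.5, chromosome X, 101449088 to 101453541, plus strand) encodes melusin, a muscle protein that binds the cytoplasmic tail of beta 1 integrin. Its level was 344, 347, 270 and 350 CPM in Sham-NT, 246, 205, 179 and 216 CPM in TAC-mScarlet, and 269, 257, 301 and 189 CPM in TAC-BacNav. Sham-NT and TAC-mScarlet did not overlap, and TAC-BacNav overlapped both. The gene fell in TAC-mScarlet to 0.644 of the sham level (-0.63 ± 0.15, adjusted p = 0.02952). Leaving out Sham-NT 1, 2 or 4 or TAC-mScarlet 2, 3 or 4 ended the call, with adjusted p up to 0.09124. Of the 10 genes of the ventricular cardiomyocyte list 4 were called lower, beside 2.52% of all genes, and 6 were not called. In that list Mybpc3 had a log2 fold change above 0 (0.16), and Actn2 was at -0.002. The part of cardiomyocytes in the fall of Itgb1bp2 was not tested.

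Within the high-Fos libraries alone 5 of 37 tested members were called in TAC-mScarlet against Sham-NT, beside 692 of 14208 genes. The 5 were Itgb8, Itga9, Itgb1bp2 and the laminin chains Lama2 and Lamc1. Itgb5 (0.74, adjusted p = 0.05333) and Itga11 (0.99, adjusted p = 0.1896) were not called there. The low-Fos libraries held 2 Sham-NT mice and 1 TAC-mScarlet mouse, which was assumed to vary like the others. There the log2 differences were 2.39 for Itgb8, 0.64 for Itgb5, 1.21 for Itga11, 1.07 for Itga9 and -0.54 for Itgb1bp2, all in the same direction as over all libraries and none called (adjusted p 0.1069 to 0.7155).

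**Figure D3:**
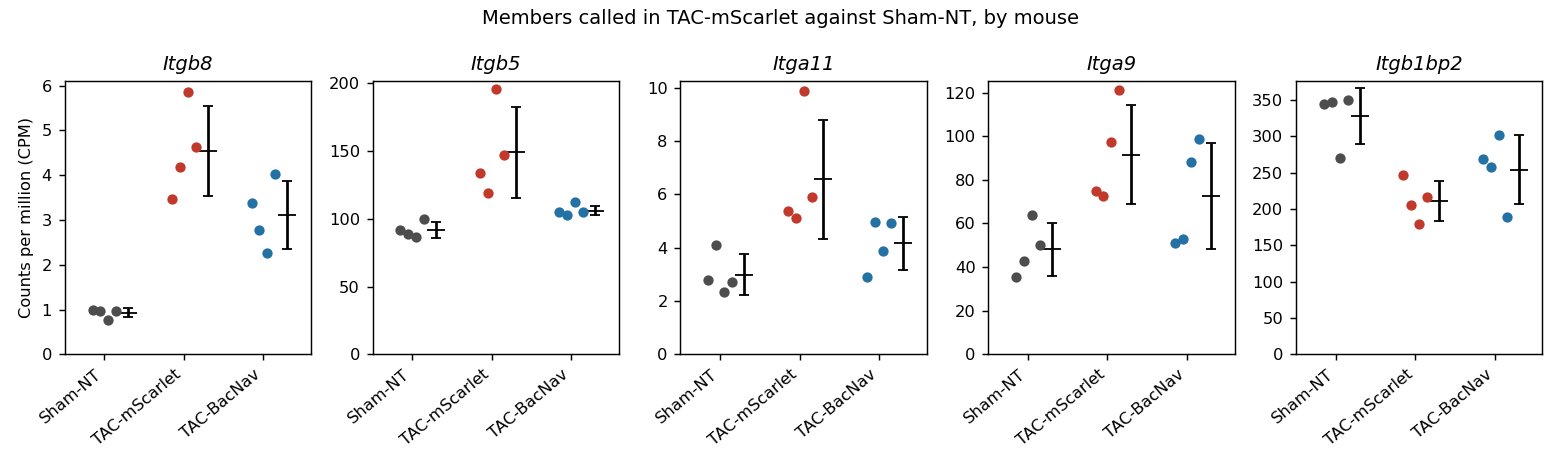
Level in CPM of the 5 members called in TAC-mScarlet against Sham-NT, 1 point per mouse, with the mean and SD of 4 mice beside each group. Itgb8 separates both TAC groups from Sham-NT, Itgb5 forms 3 bands, and Itgb1bp2 is lower in TAC-mScarlet than in Sham-NT.

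Marker lists of other cell types were counted in the same comparison, in which 2.65% of all genes were called higher. Of 10 fibroblast markers 4 rose, with sums of 2340 to 3110 CPM in Sham-NT, 3270 to 5640 CPM in TAC-mScarlet and 3010 to 3590 CPM in TAC-BacNav. Of 9 tested activated fibroblast markers 4 rose (Postn, Cilp, Thbs4 and Meox1), with sums of 215 to 267, 472 to 3320 and 265 to 695 CPM. The highest of these, 3320 CPM, was TAC-mScarlet 3, which was also the highest library for Itgb8, Itgb5 and Itga11. Postn alone reached 2070 CPM in TAC-mScarlet and so made up much of that sum. Fap (-0.24) and Acta2 (-0.47) of the same list had log2 fold changes below 0 and were not called. Of 9 macrophage markers 5 rose, with sums of 488 to 643, 732 to 1210 and 719 to 857 CPM. None of 10 endothelial or 9 tested smooth muscle and pericyte markers was called, with sums of 2140 to 3340 CPM and 1290 to 1950 CPM over all libraries. The part of these populations in the integrin results was not tested.

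The most abundant integrin subunits were not called. Itgb1 stood at 367, 390, 525 and 433 CPM in Sham-NT, 459, 471, 579 and 606 CPM in TAC-mScarlet, and 436, 452, 475 and 590 CPM in TAC-BacNav (0.30 ± 0.15 in TAC-mScarlet against Sham-NT, adjusted p = 0.244). The groups overlapped, and the low-Fos library or libraries were the higher ones in each group. Itga5 was at 77.3, 69.5, 61.2 and 67.3 CPM, then 76.9, 75.4, 63.6 and 98.8 CPM, then 70.0, 69.8, 79.9 and 74.6 CPM in the same order of groups (0.19 ± 0.13, adjusted p = 0.4131). Itga7 was at 130, 139, 133 and 131 CPM, then 121, 118, 113 and 115 CPM, then 130, 114, 108 and 98.6 CPM (-0.19 ± 0.10, adjusted p = 0.2893). Itga7 was tightly grouped in Sham-NT and TAC-mScarlet, and the 2 groups did not overlap although the difference was not called.

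Itga4, which with beta 1 or beta 7 binds VCAM1 and is known from leukocytes, was at 2.18, 2.93, 2.33 and 3.04 CPM in Sham-NT, 4.06, 4.3, 4.31 and 3.6 CPM in TAC-mScarlet, and 3.6, 4.59, 5.34 and 5.51 CPM in TAC-BacNav. Both TAC groups lay above Sham-NT, by 0.63 ± 0.25 (adjusted p = 0.1427) and 0.86 ± 0.25 (adjusted p = 0.3675) on the log2 scale, neither of them called. Itgav, the shared partner of beta 3, beta 5, beta 6 and beta 8, ranged from 35.5 to 42.2 CPM in Sham-NT, 44.0 to 70.2 CPM in TAC-mScarlet and 37.2 to 49.7 CPM in TAC-BacNav (0.44 ± 0.16, adjusted p = 0.1037). The TAC-mScarlet libraries were above those of Sham-NT without overlap. Of its other beta partners, Itgb3 was at 0.70 ± 0.34 (adjusted p = 0.2371) and the epithelial Itgb6 at -0.45 ± 0.29 (adjusted p = 0.395), neither called. With the Fos side as a covariate Itgb3 was called higher.

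The leukocyte subunits Itgal (0.78), Itgam (0.52), Itgax (0.45) and Itgb2 (0.26) had log2 fold changes above 0 in TAC-mScarlet against Sham-NT and were not called, with adjusted p from 0.1712 to 0.7455. Itgb7, another leukocyte subunit, was at -0.83 (adjusted p = 0.427). All 4 of Itgal, Itgax, Itgb7 and Itga2b stayed below 4 CPM in every library. Neutrophil markers, none of 4 tested called, summed to 2.33 to 25.6 CPM in Sham-NT, 6.38 to 71.6 CPM in TAC-mScarlet and 3.78 to 20.3 CPM in TAC-BacNav, and lymphocyte markers, none of 2 tested called, to at most 15.2 CPM in any library. Platelet markers, beside Itga2b (-0.18, adjusted p = 0.8782), summed to 22.4 to 43.9 CPM over all libraries with none of 3 called. The part of these cells in the leukocyte subunits was not tested. Exons of the predicted gene Gm49368 overlap 3450 of the 5024 exon bases of Itgam on the same strand, and reads there cannot be assigned to 1 of the 2 genes.

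The remaining integrin genes were not called over all 12 libraries. In TAC-mScarlet against Sham-NT the collagen receptor subunits Itga10 and Itga1 were at -0.98 ± 0.46 (adjusted p = 0.2202) and 0.28 ± 0.16 (adjusted p = 0.3034). Their exons overlap the predicted genes Gm42957 and Gm49395 on the same strand, so their counts are uncertain. The laminin receptor subunits Itga6, Itga3 and Itgb4 were at 0.37, -0.05 and -0.21 (Itga6 was called higher without Sham-NT 1), and Itga8, a receptor subunit of the matrix protein nephronectin, at 0.32. Itgb3bp, a centromere protein, was at 0.30. The untested Itga2 and Itgae stayed at 0.129 to 1.76 CPM and 0.16 to 1.25 CPM.

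Among the laminin alpha chains, Lama5, a chain of adult vessel walls, was at 127, 123, 116 and 119 CPM in Sham-NT, 92.9, 114, 55.0 and 66.5 CPM in TAC-mScarlet, and 94.4, 87.6, 106 and 70.9 CPM in TAC-BacNav. All 8 TAC libraries were below all 4 Sham-NT libraries, yet the SD was 26.7 CPM in TAC-mScarlet against 4.48 CPM in Sham-NT, and the log2 fold change of -0.56 ± 0.19 was not called (adjusted p = 0.08909). DESeq2 called it (adjusted p = 0.0474), as did the same edgeR fit without TAC-mScarlet 2 (-0.77, adjusted p = 0.02463). Lama4, an alpha chain of capillaries, was at 121, 117, 108 and 125 CPM, then 104, 129, 122 and 123 CPM, then 113, 104, 128 and 120 CPM (0.02 ± 0.11, adjusted p = 0.9427). For Lama4 the interval of the difference was -0.21 to 0.25 (95%). Lama2, the alpha chain of the muscle fibre's own basement membrane, ranged from 64.4 to 97.3, 96.5 to 108 and 85.2 to 113 CPM (0.37 ± 0.13, adjusted p = 0.1192). Lama2 was called higher with the Fos side as a covariate, in the high-Fos libraries alone and without Sham-NT 3.

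The mix of alpha chains per length is given as a description, with no test. Lama5 made up 43.3, 43.6, 40.4 and 40.4% of laminin alpha transcripts in Sham-NT, 35.2, 37.1, 22.2 and 26.0% in TAC-mScarlet and 36.0, 35.3, 36.3 and 26.6% in TAC-BacNav. Its share was lower in each TAC library than in each Sham-NT library. Lama2 took 15.9 to 23.5% in Sham-NT, 22.1 to 30.4% in TAC-mScarlet and 20.9 to 29.5% in TAC-BacNav. Lama4 had the highest mean share in both TAC groups, at 42.1% in TAC-mScarlet and 41.1% in TAC-BacNav. In Sham-NT it averaged 38.4%, below Lama5 at 41.9%. Endothelial markers, which mark the cells that make much of Lama4 and Lama5, had a median log2 fold change of 0.14 with none of 10 called. The part of endothelial cells in these shares was not tested.

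**Figure D4:**
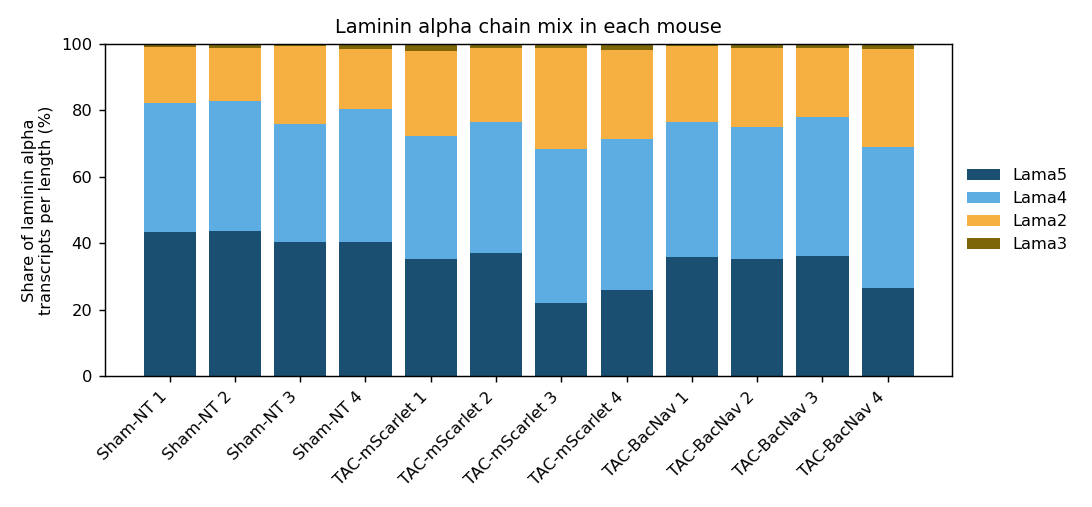
Share of each laminin alpha chain in the sum of the 4 alpha chains per length, in percent, 1 bar per mouse. Lama5 takes 40.4 to 43.6% in Sham-NT and 22.2 to 37.1% in TAC-mScarlet, and Lama2 15.9 to 23.5% and 22.1 to 30.4%.

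Among the beta chains, Lamb2, the main one of adult muscle and vessels, was at 249, 266, 256 and 274 CPM in Sham-NT, 199, 228, 212 and 238 CPM in TAC-mScarlet, and 233, 219, 256 and 214 CPM in TAC-BacNav (-0.25 ± 0.11, adjusted p = 0.1713). Sham-NT and TAC-mScarlet did not overlap. Lamb3, a beta chain known from epithelial basement membranes, was at 9.71, 19.1, 15.9 and 13.9 CPM, then 9.2, 10.8, 5.94 and 4.06 CPM, then 12.1, 10.4, 5.6 and 7.81 CPM (-0.97 ± 0.30, adjusted p = 0.07201). The groups overlapped through Sham-NT 1. DESeq2 called Lamb3 lower (adjusted p = 0.02661), and so did edgeR with the Fos side as a covariate (adjusted p = 0.0158). Lama3, an alpha chain of the same kind of basement membrane, was at 0.51 and was not called (adjusted p = 0.4162). Mesothelial markers, which mark the epithelial covering of the heart, summed to 53.3 to 120 CPM in the 7 high-Fos libraries. In the 5 low-Fos libraries they summed to 14.0 to 25.0 CPM. Mean Lamb3 in Sham-NT was 14.4 CPM in the high-Fos and 14.9 CPM in the low-Fos libraries. The same means were 8.63 and 4.06 CPM (1 library) in TAC-mScarlet and 11.2 and 6.71 CPM in TAC-BacNav. The part of mesothelial cells in Lamb3 was not tested.

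Lamc1, the gamma chain of nearly all heart laminins, was at 122, 125, 178 and 155 CPM in Sham-NT, 164, 188, 184 and 207 CPM in TAC-mScarlet, and 161, 153, 166 and 242 CPM in TAC-BacNav (0.35 ± 0.16, adjusted p = 0.2068). Nid1 was at 126, 142, 206 and 173 CPM, then 159, 200, 206 and 222 CPM, then 159, 195, 203 and 282 CPM (0.28 ± 0.18, adjusted p = 0.3916). For both genes the groups overlapped, and within each group the low-Fos libraries were the higher ones. Lamc1 was called higher with the Fos side as a covariate (0.46, adjusted p = 0.02696) and in the high-Fos libraries alone (0.54, adjusted p = 0.03088). Lamb1, the beta chain of many embryonic and vessel laminins, was at 0.02 (adjusted p = 0.953), and Lamc3 at -0.11 (adjusted p = 0.9239). Nid2 ranged from 13.7 to 20.6, 15.3 to 25.5 and 15.1 to 23.3 CPM (0.15, adjusted p = 0.6988).

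No member was called in TAC-BacNav against TAC-mScarlet, and no gene of the 13910 was called (0.0%). The smallest adjusted p over all genes was 0.7796. Before adjustment 467 genes (3.36%) had p under 0.05, 3 of them members (Itgb5, Itga11 and Itgb7). DESeq2 called 5 genes and limma-voom 0, with no member among them. The members' median log2 fold change was -0.05, with 14 of 37 above 0, beside 0.00359 over all genes. Itgb5 and Itga11 were lower in each TAC-BacNav library than in each TAC-mScarlet library, an order that 0.935% of all genes showed, and no member was higher without overlap (0.762% of all genes).

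Itgb5 differed by -0.49 ± 0.13 (95% interval -0.77 to -0.21, p before adjustment 0.00209, adjusted p = 0.9995), and leaving out single libraries gave -0.58 to -0.33. Itga11 differed by -0.66 ± 0.27 (-1.24 to -0.07, p before adjustment 0.0301, adjusted p = 0.9995). The intervals of the other members called against sham included 0. For Itgb8 the difference was -0.53 ± 0.27 (-1.10 to 0.03), for Itga9 -0.33 ± 0.24 (-0.84 to 0.18) and for Itgb1bp2 0.27 ± 0.15 (-0.05 to 0.58). Each of the 4 members that rose in TAC-mScarlet had a lower mean in TAC-BacNav, and Itgb1bp2 a higher one. These values share the TAC-mScarlet libraries with the first comparison and so are no second line of evidence. Itgb7 was the largest positive value at 1.24, on levels of 0.58 to 1.08 CPM in TAC-mScarlet and 0.93 to 3.62 CPM in TAC-BacNav.

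In TAC-BacNav against Sham-NT no member was called, and 2 of all genes were (0.0144%). Before adjustment 8 of 37 members had p under 0.05 (Itgb8, Itga4, Itga9, Itga7, Itgb6, Itgb1bp2, Lama5 and Lamb3), beside 11.1% of all genes. The median over members was 0.18 against 0.00788 over all genes. Itgb8 had the largest difference, 1.76 ± 0.33 (95% interval 1.06 to 2.45, adjusted p = 0.2301), and DESeq2 called it (1.78, adjusted p = 0.01839). Groups did not overlap for Itgb8, Itga4 and Itgb5 in the higher direction (3.08% of all genes) and for Itgb6 and Lama5 in the lower (2.37%). For Itgb5, at 0.21 ± 0.13 (-0.07 to 0.50), and Itga11, at 0.50 ± 0.30 (-0.14 to 1.14), the interval included 0. Neither limma-voom nor any fit that left out a library called a member here.

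Genes around the members were summarised from 4 lists. Over all genes tested, 2.65% were called higher and 2.52% lower in TAC-mScarlet against Sham-NT. Of 37 tested genes of the adhesion machinery inside the cell, 3 rose in TAC-mScarlet against Sham-NT, 0 fell and 34 were not called, with a median of 0.05. The risers were Rsu1, a partner of the PINCH adaptors (0.59 ± 0.13), Sorbs2, an adaptor of the cytoskeleton (0.62 ± 0.15), and Ptk2b, the focal adhesion kinase relative PYK2 (1.01 ± 0.26), with adjusted p of 0.02447, 0.03376 and 0.03699. Of 23 tested genes of the dystroglycan and dystrophin complex, which is the other laminin receptor of the cardiomyocyte, 1 rose (the sarcoglycan Sgce, 0.58 ± 0.15, adjusted p = 0.0366) and 22 were not called, with a median of 0.00985.

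Outside the cell, of 25 tested other basement membrane genes 4 rose and 21 were not called, with a median of 0.51. They were the fibulin Fbln2 (1.21 ± 0.22, adjusted p = 0.01598), the calcium-binding protein Smoc2 (0.62 ± 0.13, adjusted p = 0.02285), the collagen prolyl hydroxylase P3h2 (1.74 ± 0.39, adjusted p = 0.02584) and the netrin Ntn4 (0.66 ± 0.16, adjusted p = 0.02952). Of 24 tested other integrin ligands 6 rose and 18 were not called, with a median of 0.71. Those with the smallest p were Emilin1, a ligand of alpha 4 and alpha 9 integrins (1.00 ± 0.20), Ccn2, a matricellular protein (2.14 ± 0.40), Tgfb3, whose latent form binds alpha v integrins (1.07 ± 0.22), and Postn, a ligand of alpha v integrins (4.12 ± 0.83), with adjusted p of 0.02285 to 0.02952. The ligand list shares Col1a1, Col1a2, Postn and Fn1 with the fibroblast lists. In the other 2 comparisons none of the 4 lists had a called gene, with medians of -0.02, -0.03, -0.21 and -0.23 in TAC-BacNav against TAC-mScarlet and 0.09, 0.03, 0.26 and 0.33 in TAC-BacNav against Sham-NT, in the order above.

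Upstream sequences are shown for Itgb5 and Itga11, the 2 members that were higher in TAC-mScarlet than in each other group without overlap. They are the bases before the annotated start on GRCm38 from RefSeq, 5′ to 3′ on the plus strand, with GGGCGG on either strand (the GC box, a binding sequence of SP factors) in capitals.
Itgb5, chr16:33829415-33829664: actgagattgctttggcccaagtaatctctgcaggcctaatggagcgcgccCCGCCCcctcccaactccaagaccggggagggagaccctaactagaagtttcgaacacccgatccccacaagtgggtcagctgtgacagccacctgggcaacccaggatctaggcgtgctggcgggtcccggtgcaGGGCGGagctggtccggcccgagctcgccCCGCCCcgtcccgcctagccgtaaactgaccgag
Itga11, chr9:62677605-62677825: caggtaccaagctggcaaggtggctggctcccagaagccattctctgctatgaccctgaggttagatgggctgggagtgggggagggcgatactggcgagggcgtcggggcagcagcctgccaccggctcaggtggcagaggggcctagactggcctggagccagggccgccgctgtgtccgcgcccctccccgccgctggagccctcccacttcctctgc
The Itgb5 window of 250 bases was 65.2% G and C, against a median of 52.4% over windows of that length, and held 3 GC boxes, where 32.7% of 32851 windows held at least 1. The Itga11 window of 221 bases was 69.2% G and C (median 52.0%) and held no GC box (28.7% of windows). Neither window held TGANTCA, the AP-1 sequence (6.75 and 6.13% of windows of each length), GGAATG, the TEAD sequence (12.6 and 11.5%), CAGAC, the SMAD box (42.2 and 38.6%), or a CArG box of SRF (1.47 and 1.3%), on either strand. A match or its absence in these letters is a description and says nothing of binding.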

How the data were processed

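Per the labels' protocols, total RNA came from frozen ventricles and was read as paired ends. The authors deposited 1 table of whole-number counts per gene for each mouse. Per the submitters' processing notes the tools were HISAT2 and featureCounts, and those notes name the build GRCh38, although the identifiers are mouse Ensembl genes. Tool versions, the strand setting and the handling of reads that match more than 1 place are unknown from these sources, so reads of genes that overlap on opposite strands cannot be told apart. Of 39 members 14 share exon bases with another gene, 3 of them on the same strand (Itgam, Itga10 and Itga1). Positions and exon lengths came from GENCODE vM21 (GRCm38), where 14946 of 14957 identifiers matched without their version. No gene of the deposited tables totals under 30 counts, so rarer genes had been left out by an unstated rule.

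Mice were grouped by their titles, and each is a separate animal. Libraries of a group all differed by more than sampling noise (chi-square of at least 5.35 per degree of freedom). Counts as deposited were fitted with edgeR 4.0.16 in R 4.3.3 (filterByExpr by group, which kept 13910 genes and removed 1047; TMM; 1 robust quasi-likelihood model of all 12 libraries). Tests were two-sided, p-values were adjusted by Benjamini-Hochberg across every gene tested, and the threshold was 0.05. SE is the size of the log2 difference over the root of F, and the 95% intervals use the fit's own degrees of freedom. Errors of levels are SDs over 4 mice. The procedure was tested on simulated data for TAC-mScarlet against Sham-NT and TAC-BacNav against TAC-mScarlet. It recovered 13.4% of 1.5-fold changes in both, 58.2 to 68.7% of 2-fold changes and 90.9 to 92.4% of 4-fold changes. False calls numbered 3 to 5. Most changes of 1.5-fold thus went uncalled, and a member that was not called may still have changed. The members and gene lists were chosen with earlier results of these data known. Values in every library are given for members called in any comparison, those with p under 0.01 before adjustment and the most abundant of each class (15 in all), and up to 4 called genes of each list are named. One member is counted in the totals and is not reported here by name. Members named beyond that rule were chosen after their values were seen. Alternatives were other scalings and filters, DESeq2 1.42.0, limma-voom (limma 3.58.1), fits with a replicate block or the Fos side, and leaving out each library.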

Additional observations from a re-analysis of the deposited data

Results flagged for a closer look

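Among the 15 members given in every library, 45 sets of 4 values were searched for a single value far from the other 3, a search that flags about 1 set in 20 by chance. It marked 3. Itgb1bp2 stood at 270 CPM in Sham-NT 3 against 344 to 350 CPM in the other sham mice, and without Sham-NT 3 the fall of Itgb1bp2 in TAC-mScarlet was still called. Itgb8 stood at 0.776 CPM in Sham-NT 3 against 0.961 to 0.991 CPM, on 6 counts, where the other sham libraries held 5, 5 and 6. Lamc1 stood at 242 CPM in TAC-BacNav 4 against 153 to 166 CPM in the other TAC-BacNav mice. The same library was the highest of its group for Nid1 (282 CPM) and Itgb1 (590 CPM) and the lowest for Itga7 (98.6 CPM) and Itgb1bp2 (189 CPM).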

How the results depend on the processing

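In TAC-mScarlet against Sham-NT the reported counts were 719 genes and 5 members. Members numbered 5 under other size factors, library size scaling, no filter, a stricter filter and the 2 groups alone, and 7 with DESeq2. DESeq2 called 1371 genes, limma-voom 467 genes with 3 members, the fit with the Fos side as a covariate 1459 genes with 9 members, and the low-Fos libraries 96 genes with 0 members. Leaving out single libraries gave 14 to 1055 genes and 1 to 6 members, with 1 member (Itgb8) without Sham-NT 2 or Sham-NT 4. Library size scaling moved the median of all genes from 0.00444 to 0.131 and kept 4 members higher and 1 lower. Itgb8 kept its call in 22 of 23 alternatives, Itgb5 in 19, Itgb1bp2 in 16, Itga9 in 15 and Itga11 in 14, and each kept its direction in all 23.

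In TAC-BacNav against TAC-mScarlet no alternative called a member, and genes called numbered 5 with DESeq2, 1 with the 2 groups alone, 6 with the replicate block, 2 in the high-Fos libraries and 0 to 1 on leaving out libraries. In TAC-BacNav against Sham-NT they numbered 38 with DESeq2 (1 member), 1 with the 2 groups alone, 12 with the replicate block, 8 with the Fos covariate, 4 in the high-Fos and 34 in the low-Fos libraries, and 0 to 15 on leaving out libraries. Whether the mouse numbers pair libraries across groups was not settled. Same-numbered mice correlated at -0.292 to 0.379 and mice of different numbers at -0.374 to 0.512. Of 12 libraries 3 correlated best with their own number. The Fos split largely follows the numbers, so these values cannot decide the question. With the replicate block TAC-mScarlet against Sham-NT called 889 genes and 6 members.

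Signs turned only for members that were not called. In TAC-mScarlet against Sham-NT the high-Fos libraries gave Itga5 -0.0237 and Lama4 -0.00612, and leaving out libraries gave Lama4 -0.0238 to 0.0793. In TAC-BacNav against TAC-mScarlet the high-Fos libraries gave Itga4 -0.0504, Itga7 0.0515 and Nid1 -0.0926, the low-Fos libraries Lama4 0.0102 and Lamb2 -0.0231, and the Fos covariate Nid1 -0.0264. There, leaving out libraries gave Itga5 -0.185 to 0.0335, Itga7 -0.13 to 0.00835, Lama4 -0.0977 to 0.00921, Lama5 -0.0271 to 0.327, Lamc1 -0.213 to 0.0317 and Nid1 -0.0824 to 0.204. In TAC-BacNav against Sham-NT, Itga5 was -0.0698 in the high-Fos libraries, and Lama4 was 0.0821 under library size scaling, 0.0715 in the low-Fos libraries and -0.0609 to 0.0299 on leaving out libraries. The cause was not tested. Itgb8 rests on 5 or 6 counts in each sham library.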

Other observations

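Itgb1, Lamc1 and Nid1, the leading beta subunit, laminin gamma chain and nidogen by level, were all among the 5 members that were higher in low-Fos libraries within each group. Nid1 was at 126 to 142 CPM in the high-Fos and 173 to 206 CPM in the low-Fos sham libraries, and at 159 to 195 against 203 to 282 CPM in TAC-BacNav. The split was noticed in the data and leaves 1 low-Fos library in TAC-mScarlet. It largely follows the mouse numbers in the titles, with mice 1 and 2 of every group on the high side, mouse 4 of every group on the low side, and mouse 3 on the low side in Sham-NT and TAC-BacNav and on the high side in TAC-mScarlet. The labels do not say what the numbers stand for.

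The mix of alpha subunits per length is likewise given as a description, with no test. Itga7 took 25.7 to 29.1% of integrin alpha transcripts per length in Sham-NT, 18.1 to 22.7% in TAC-mScarlet and 17.7 to 26.3% in TAC-BacNav. Itga9 averaged 10.7, 16.7 and 14.4%, while Itga5 averaged 23.6, 22.5 and 23.0%. Among the beta subunits Itgb5 took 15.3 to 20.3, 20.9 to 26.9 and 16.2 to 20.6%, so that each TAC-mScarlet library exceeded each library of the other groups, and Itgb1 averaged 75.1, 72.1 and 75.7%.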
